A study of Mus musculus with 5 samples.

Results

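Interferon-stimulated genes are the genes that a cell switches on when it is exposed to interferons, and they serve here as a readout of antiviral and inflammatory signaling in the drainage tissue of the mouse eye. The set described below holds 35 genes, named by symbol and taken by their Ensembl identifiers from the 56941 gene rows of the count table. All 35 were found, and all 35 passed the filter on low counts, which asked for at least 10 counts in at least 1 pool. RNA was sequenced from the iridocorneal angle, the ring at the iris root that carries the trabecular meshwork, of mice aged 12 months. The DBA/2J mice carry the Tyrp1 b allele and a nonsense allele of Gpnmb, and develop pigmentary glaucoma. The Gpnmb+ mice (DBA/2J-Gpnmb+/SjJ) share the background and the Tyrp1 b allele but have a functional Gpnmb, and no group was treated. Sequencing covered 3 pools of DBA/2J and 2 of Gpnmb+, with 3 mice stated for each pool and both sexes used, although the names of the Gpnmb+ libraries list only 2 animals each.

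Type I interferons act through the kinases JAK1 and TYK2 on a complex that holds STAT2 and IRF9 and binds the interferon-stimulated response element (ISRE). Type II interferon acts mainly through gamma-activated sites (GAS). The induced genes encode sensors of foreign RNA and DNA, enzymes that degrade or block viral RNA, membrane proteins that stop virus entry or release, and GTPases that attack vacuoles holding pathogens.

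The promoters of several members carry the response element, and 7 are shown first, from genes that varied much (Isg15, Ifit1, Oas2, Oas3, Zbp1) or less (Ifit3, Irgm1) between pools, to make the shared motif visible. ISRE letters were searched as GAAANNGAAA on both strands, in a window of 300 bases that starts 250 bases before the canonical transcription start (GRCm39). They occurred in 19 of 35 member promoters and in 3.84% of 21770 protein-coding promoters of the same length. Capitals mark the ISRE matches, which overlap one another in Isg15, Zbp1 and Irgm1, and each run is read 5′ to 3′ on the strand of its gene.
Isg15 (chr4:156285317-156285368, minus strand): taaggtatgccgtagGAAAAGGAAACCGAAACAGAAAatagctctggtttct
Ifit1 (chr19:34618170-34618228, plus strand): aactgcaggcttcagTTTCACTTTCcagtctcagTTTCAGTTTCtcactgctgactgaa
Ifit3 (chr19:34560758-34560831, plus strand): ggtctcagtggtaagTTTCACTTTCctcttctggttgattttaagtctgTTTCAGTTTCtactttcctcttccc
Oas2 (chr5:120887965-120888004, minus strand): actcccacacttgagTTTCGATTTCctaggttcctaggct
Oas3 (chr5:120915775-120915814, minus strand): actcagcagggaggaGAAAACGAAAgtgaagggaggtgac
Zbp1 (chr2:173060737-173060830, minus strand): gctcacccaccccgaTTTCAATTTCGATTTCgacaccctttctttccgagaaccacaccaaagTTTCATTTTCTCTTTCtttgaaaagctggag
Irgm1 (chr11:48762247-48762292, minus strand): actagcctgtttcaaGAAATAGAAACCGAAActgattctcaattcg
Isg15 holds 3 overlapping copies within this short stretch, and Zbp1 holds 4 in overlapping pairs. GAS letters, searched as TTCNNNGAA, a motif that reads the same on both strands, occurred in 7 of 35 member promoters and in 8.81% of all. The windows of Irf7, Mx1, Ifi44 and Ifitm3 hold no ISRE letters, which says nothing of the factors that bind there.

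The libraries held 43900661 to 49837758 counts each. Gpnmb (chr6:49013426-49047863) checked the labels, with 1946 to 2234 counts in DBA/2J, against 129659 and 110568 in Gpnmb+, or -5.67 ± 0.14 (SE) on the log2 scale. The trabecular meshwork markers Myoc, Mgp, Angptl7 and Cyp1b1 were present at a summed counts-per-million (CPM) level of 1030 to 1420 in every pool. Surface keratins were also abundant, with Krt5 at 2095 to 3825 CPM. The Gpnmb+ pools held almost no Y-linked RNA, with Ddx3y at 0 and 4 counts against 1567 to 4168 in DBA/2J, although both groups are described as male and female. Sex and genotype therefore cannot be told apart in the comparisons between genotypes below.

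The first question was whether the interferon-stimulated genes differed between DBA/2J and Gpnmb+ tissue. None of the 35 members was called by edgeR, and 0.796% of 19713 tested genes were. A call asked for a Benjamini-Hochberg adjusted p of at most 0.05 over all tested genes and a fold of at least 1.5. At so small a share, 0 of 35 members called says little about the members. The adjusted p of the members ran from 0.33 to 0.98 in edgeR's quasi-likelihood test. At an unadjusted p of at most 0.05 the member counts were 0 in edgeR, 0 in limma-voom and 2 in DESeq2, where the shares of tested genes were 15.9%, 15.9% and 16.1%. With a fold of at least 1.5 as well, the edgeR share of tested genes was 8.67%. The median log2 fold change of the members was -0.07, against -0.02 over all tested genes, with 10 members higher and 25 lower in DBA/2J. In no member were the DBA/2J pools all above or all below the Gpnmb+ pools, whereas this separation held for 34.5% of tested genes. In a bulk sample fewer cells of a type and less RNA per cell cannot be told apart, so these levels describe the tissue and not a cell.

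The sign of the median and the tally of higher members rested on single pools. Without Gpnmb+ pool 1 it was 0.39 and without Gpnmb+ pool 2 it was -0.33, on the log2 scale. Without DBA/2J pool 1 it was -0.28, and without DBA/2J pool 3 it was 0.12. The number of members higher in DBA/2J was 29 of 35 without Gpnmb+ pool 1, 24 without DBA/2J pool 3, 15 without DBA/2J pool 2, 7 without DBA/2J pool 1 and 6 without Gpnmb+ pool 2. No member was called without a DBA/2J pool, but those fits called few of all tested genes. They called 6 without DBA/2J pool 1, 1 without DBA/2J pool 2 and 17 without DBA/2J pool 3. With so few calls, the absence of called members says little. With 1 Gpnmb+ pool left, that pool is assumed to vary like the DBA/2J pools.

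**Figure D1:**
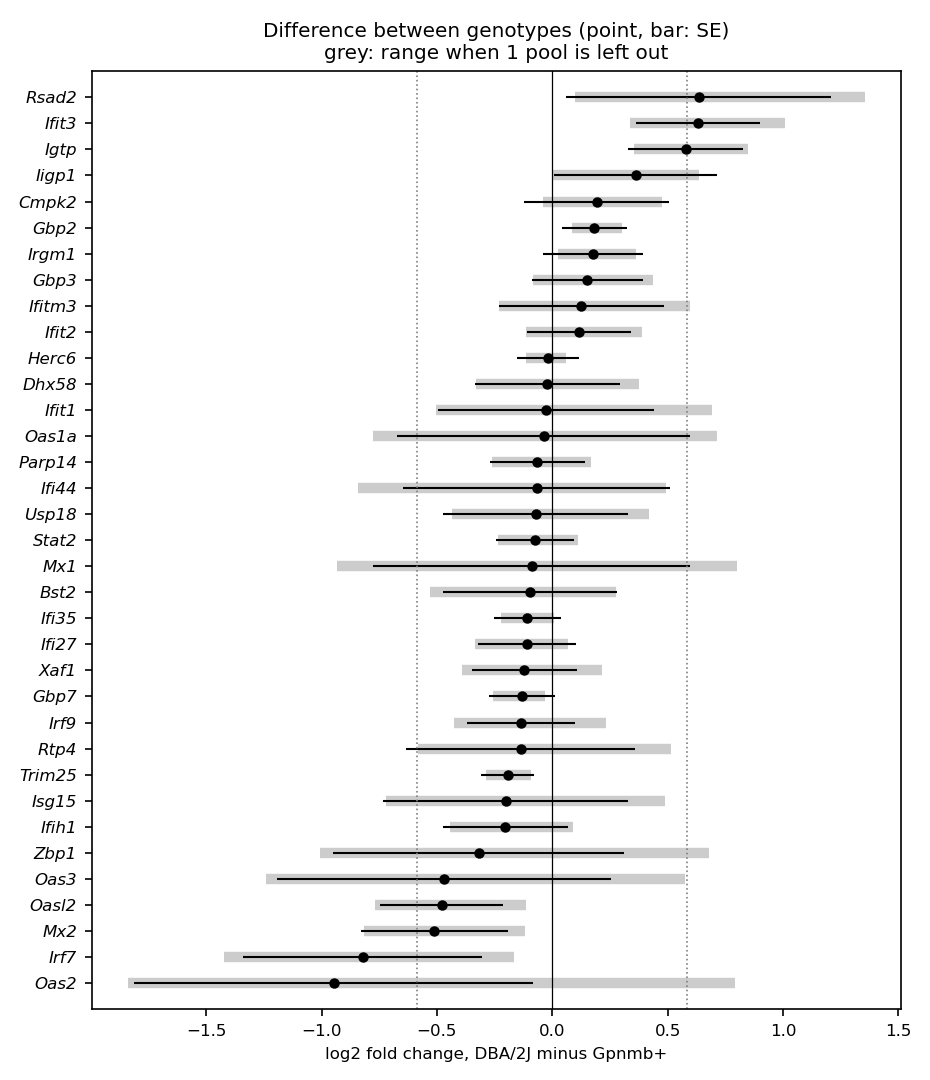
Log2 fold change between genotypes for the 35 members, ordered by value, with positive values higher in DBA/2J. Points with black bars give the edgeR estimate and its SE, grey bars the lowest and highest estimate when each of the 5 pools is left out, and dotted lines a 1.5-fold difference. The estimates run from -0.95 for Oas2 to 0.63 for Rsad2, and many grey bars cross 0.

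The members with the smallest edgeR p-values illustrate the size of the spread. Ifit3 (chr19:34560899-34566443), of the IFIT family, had 8180, 8230 and 5434 counts in pools 1 to 3 of DBA/2J. In pools 1 and 2 of Gpnmb+ it had 6669 and 4044 counts. Its log2 fold change was 0.63 ± 0.27 (SE), with an adjusted p of 0.33 in edgeR, and the lowest DBA/2J pool lay below the highest Gpnmb+ pool. Of the 100-base runs in Ifit3 transcripts, 16.7% also occur in Ifit3b. Reads that align equally well to both genes are left out of a count of unique alignments, and their share was not measured. Igtp, a GTPase of the immunity-related family, had 1410, 1224 and 869 counts in DBA/2J, against 1055 and 724 counts in Gpnmb+. Its log2 fold change was 0.58 ± 0.25 (SE; edgeR adjusted p = 0.34), and here too the groups overlapped. Rsad2 (chr12:26492745-26506451), the enzyme viperin that makes a chain terminator of viral RNA synthesis, had 1664, 912 and 472 counts in DBA/2J, against 1049 and 443 counts in Gpnmb+. Each of its groups spanned more than 2-fold, and its log2 fold change of 0.63 ± 0.57 (SE) had an edgeR adjusted p of 0.65.

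Members with negative estimates overlapped in the same way. Irf7 (chr7:140842619-140846398), the factor that amplifies interferon alpha transcription, had 3103, 1334 and 1056 counts in DBA/2J, against 5081 and 2282 counts in Gpnmb+, for a log2 fold change of -0.82 ± 0.52 (SE; edgeR adjusted p = 0.495). DBA/2J pool 1 lay above Gpnmb+ pool 2, and the other DBA/2J pools lay below both Gpnmb+ pools. Oasl2 (chr5:115034997-115050295), an OAS-like protein, had 6091, 4823 and 3639 counts in DBA/2J, against 9533 and 5849 in Gpnmb+, with a log2 fold change of -0.48 ± 0.27 (SE). Mx2, a dynamin-like GTPase, had 133, 83 and 87 counts against 205 and 122, a log2 fold change of -0.51 ± 0.32 (SE). Trim25, a ubiquitin ligase that acts on the RNA sensor RIG-I, had 4339, 4461 and 3820 counts against 5931 and 4993, a log2 fold change of -0.19 ± 0.11 (SE). In each of these 4 genes at least 1 DBA/2J pool lay above the lower Gpnmb+ pool once scaled for library size, in Trim25 with 104 against 102 CPM.

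The larger differences lay between pools of the same genotype. Within DBA/2J, the members' median ratio of pool 1 to pool 3 was 1.81, and within Gpnmb+ the median ratio of pool 1 to pool 2 was 1.58, both on CPM with a prior count of 2. The medians over all tested genes were -0.01 and 0.00 on the log2 scale, where the members had 0.85 and 0.66. These contrasts set 1 pool against 1 pool, so they carry no test, and they were chosen after the values had been seen. The pool numbers come from the labels, which do not say that equal numbers share a litter, day or batch.

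In DBA/2J, 25 of 35 members were at least 1.5-fold higher in pool 1 than in pool 3, against 8.91% of tested genes. Against DBA/2J pool 2 this held for 14 of 35 members, with a background of 8.31%. In Gpnmb+, 20 of 35 members were at least 1.5-fold higher in pool 1 than in pool 2, against 11.1% of tested genes. There were 13 members in which pool 1 was at least 1.5-fold above every other pool of its genotype in both genotypes, against 2.33% of tested genes: Irf7, Zbp1, Isg15, Rsad2, Oas1a, Oas2, Oas3, Mx1, Mx2, Bst2, Ifitm3, Ifi44 and Rtp4. Pool 1 was simply the highest of its genotype in both genotypes for 30 of 35 members, against 20.8% of tested genes. Of the 35 members, 19 were highest of all pools in DBA/2J pool 1, 13 in Gpnmb+ pool 1 and 3 in DBA/2J pool 2, and 25 were lowest in DBA/2J pool 3.

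Members that differed most between the DBA/2J pools also differed most between the Gpnmb+ pools. Over the 35 members the log2 ratio of DBA/2J pool 1 to pool 3 and that of Gpnmb+ pool 1 to pool 2, which share no library, had a Pearson r of 0.869 and a Spearman rho of 0.832. The same values over 19713 tested genes were 0.194 and 0.158. With DBA/2J pool 2 in place of pool 3, the likeness was weaker in the members, with r of 0.74 and rho of 0.743. Over all tested genes these values were then higher, at 0.303 and 0.259. These are correlations across genes, which are not independent replicates.

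**Figure D2:**
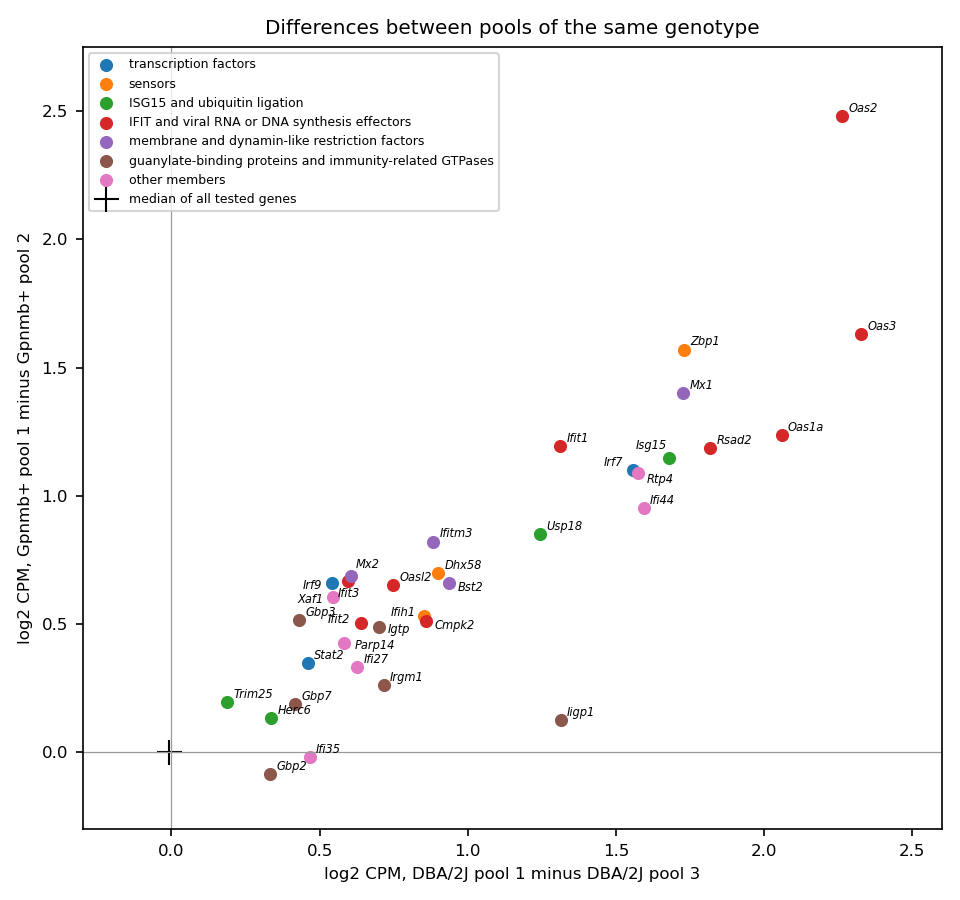
Difference in log2 CPM between pools of the same genotype for the 35 members, DBA/2J pool 1 minus pool 3 on the horizontal axis and Gpnmb+ pool 1 minus pool 2 on the vertical axis, colored by role. Oas2 and Oas3 lie farthest along both axes, Gbp2, Trim25 and Herc6 lie near 0, and the cross at 0 is the median of all tested genes.

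The spread shows in edgeR's estimate of the coefficient of variation between pools of a genotype beyond counting noise. Its median was 25.8% over the members, while the trend at their expression levels had a median of 14.9%. The estimate exceeded the trend in 29 of 35 members and in 22.8% of all tested genes. It exceeded the trend by more than 1.5 times in 18 of 35 members and in 6.54% of all tested genes. Oas2 was highest at 64.9% and Trim25 lowest at 11.8%.

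Among the transcription factors, Irf7 varied and the ISGF3 subunits varied less. Irf7 was 2.94-fold higher in DBA/2J pool 1 than in pool 3 and 2.15-fold higher in Gpnmb+ pool 1 than in pool 2. Stat2, which carries the transactivation domain of the complex, was 44.1, 40.5 and 32.1 CPM in DBA/2J and 45.8 and 36.0 CPM in Gpnmb+. Irf9, its DNA-binding subunit, was 57.3, 49.0 and 39.3 CPM against 65.3 and 41.3 CPM. The log2 fold change between genotypes was -0.07 ± 0.17 (SE) for Stat2 and -0.14 ± 0.23 (SE) for Irf9. In both, as in Irf7, the pools numbered 1 were highest and DBA/2J pool 3 lowest.

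In the sensors too, the pools numbered 1 were highest and DBA/2J pool 3 lowest. Zbp1 (chr2:173033815-173060724), which detects Z-form nucleic acids and can trigger cell death, had 1272, 498 and 383 counts in DBA/2J, against 1541 and 499 counts in Gpnmb+. Both pools numbered 1 stood well above the rest, by 2.46-fold and 3.32-fold in DBA/2J and by 2.97-fold in Gpnmb+. The RNA helicases Ifih1 and Dhx58 varied less, between 29.2 and 56.9 CPM and between 9.93 and 18.6 CPM over the 5 pools. The log2 fold changes between genotypes were -0.32 ± 0.63 (SE) for Zbp1, -0.20 ± 0.27 (SE) for Ifih1 and -0.02 ± 0.32 (SE) for Dhx58.

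In the ISG15 pathway the modifier varied more than its ligase. Isg15 (chr4:156283883-156285303), the ubiquitin-like protein that is joined to newly made proteins, had 1609, 867 and 503 counts in DBA/2J, against 1815 and 788 counts in Gpnmb+. Its highest values in the genotypes were nearly equal at 36.2 and 35.8 CPM, and its log2 fold change was -0.20 ± 0.53 (SE). Usp18, which removes ISG15 and restrains the interferon receptor, was 19.9, 14.2 and 8.36 CPM against 19.1 and 10.6 CPM. Herc6, the ISG15 ligase of mice, stayed between 16.2 and 20.4 CPM in all 5 pools, and Trim25 between 85.6 and 117 CPM. Herc6 and Usp18 lie on chromosome 6, as does Gpnmb, and their log2 fold changes were -0.02 ± 0.13 and -0.07 ± 0.40 (SE).

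The OAS enzymes make the oligoadenylates that activate RNase L, and Oas2 and Oas3 varied more between pools than any other member. Oas2 (chr5:120868398-120887933) had 347, 120 and 71 counts in DBA/2J, against 676 and 115 counts in Gpnmb+. Gpnmb+ pool 1 was 5.58-fold above Gpnmb+ pool 2, and DBA/2J pool 1 was 4.80-fold above DBA/2J pool 3. Oas3 (chr5:120891163-120915729) had 1033, 442 and 205 counts against 1352 and 419, so that DBA/2J pool 3 held the least and pool 1 of each genotype the most. Oas1a had 1028, 422 and 246 counts against 938 and 383 counts, and 9.54% of the 100-base runs in its transcripts also occur in other genes, chiefly Oas1g. The log2 fold changes between genotypes, -0.95 ± 0.86 for Oas2, -0.47 ± 0.72 for Oas3 and -0.04 ± 0.64 for Oas1a (SE), were of the size of their errors or smaller. The estimate for Oas2 ran from -1.84 to 0.79 when 1 pool was left out.

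Some IFIT genes separated the DBA/2J pools in another way. Ifit1, a cap-binding inhibitor of viral translation, was 97.0, 82.1 and 39.1 CPM in DBA/2J and 103 and 45.1 CPM in Gpnmb+. DBA/2J pools 1 and 2 were close to each other and pool 3 was low. Ifit3 at 184, 192 and 122 CPM and Cmpk2, a mitochondrial nucleotide kinase, at 22.9, 24.7 and 12.6 CPM gave the same pattern in DBA/2J. Of the 9 genes of this group, which are the IFIT and OAS genes with Rsad2 and Cmpk2, 7 were at least 1.5-fold higher in DBA/2J pool 2 than in pool 3, as were 11 of all 35 members and 7.70% of tested genes. The exceptions were Ifit2, at 64.3, 52.2 and 41.3 CPM, and Oasl2.

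The membrane and dynamin-like restriction factors differed in this respect. Ifitm3, which blocks the fusion of virus with endosomes, had 20345, 10676 and 11060 counts in DBA/2J, against 18891 and 10305 counts in Gpnmb+. Mx1, a GTPase that restricts influenza virus, had 176, 50 and 52 counts against 165 and 59. Bst2, which tethers budding virus, was 51.6, 23.3 and 27.0 CPM against 44.4 and 28.1 CPM. In these genes and in Mx2, pool 1 stood alone and DBA/2J pools 2 and 3 were alike, with a median ratio of pool 2 to pool 3 of 0.995, against 1.78 in the IFIT and OAS group. Ifi44 among the other members shared the pattern, at 1153, 345 and 382 counts in DBA/2J, against 995 and 495 counts in Gpnmb+.

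The guanylate-binding proteins and immunity-related GTPases, which type II interferon induces strongly, varied least between the Gpnmb+ pools. None of the 6 was 1.5-fold higher in Gpnmb+ pool 1 than in pool 2, and their median ratio there was 1.17. Gbp2 (chr3:142326349-142343779) had 5820, 6085 and 4638 counts in DBA/2J, against 5444 and 5576 counts in Gpnmb+, with a log2 fold change of 0.18 ± 0.14 (SE). Gbp7 was 33.5 to 44.7 CPM over the 5 pools, and Gbp3 was 28.6 to 49.1 CPM. Irgm1, which keeps the other GTPases of its family inactive on host membranes, was 105, 93.1 and 63.6 CPM against 83.9 and 70.1 CPM. Iigp1, an effector of the same family, was 55.7, 37.9 and 22.4 CPM in DBA/2J and 31.4 and 28.8 CPM in Gpnmb+, so that its spread lay mostly in DBA/2J. Estimates were positive for 5 of these 6 genes and negative for Gbp7, and none was called.

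The remaining members gave small differences between genotypes, with log2 fold changes between -0.14 and -0.07. Rtp4, a receptor chaperone, was 39.9, 26.0 and 13.4 CPM in DBA/2J and 39.5 and 18.5 CPM in Gpnmb+, an order like that of Isg15. The pro-apoptotic proteins Xaf1 and Ifi27 and the ADP-ribosyltransferase Parp14 were 73.5 to 115, 71.2 to 110 and 79.3 to 123 CPM. Ifi35 was 29.1 to 40.2 CPM, and 620 of its 3816 exonic bases lie opposite exons of Vat1, which had 82376 counts in all. No source used here gives the strand setting of the counts, so reads of Ifi35 and Vat1 there cannot be told apart.

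**Figure D3:**
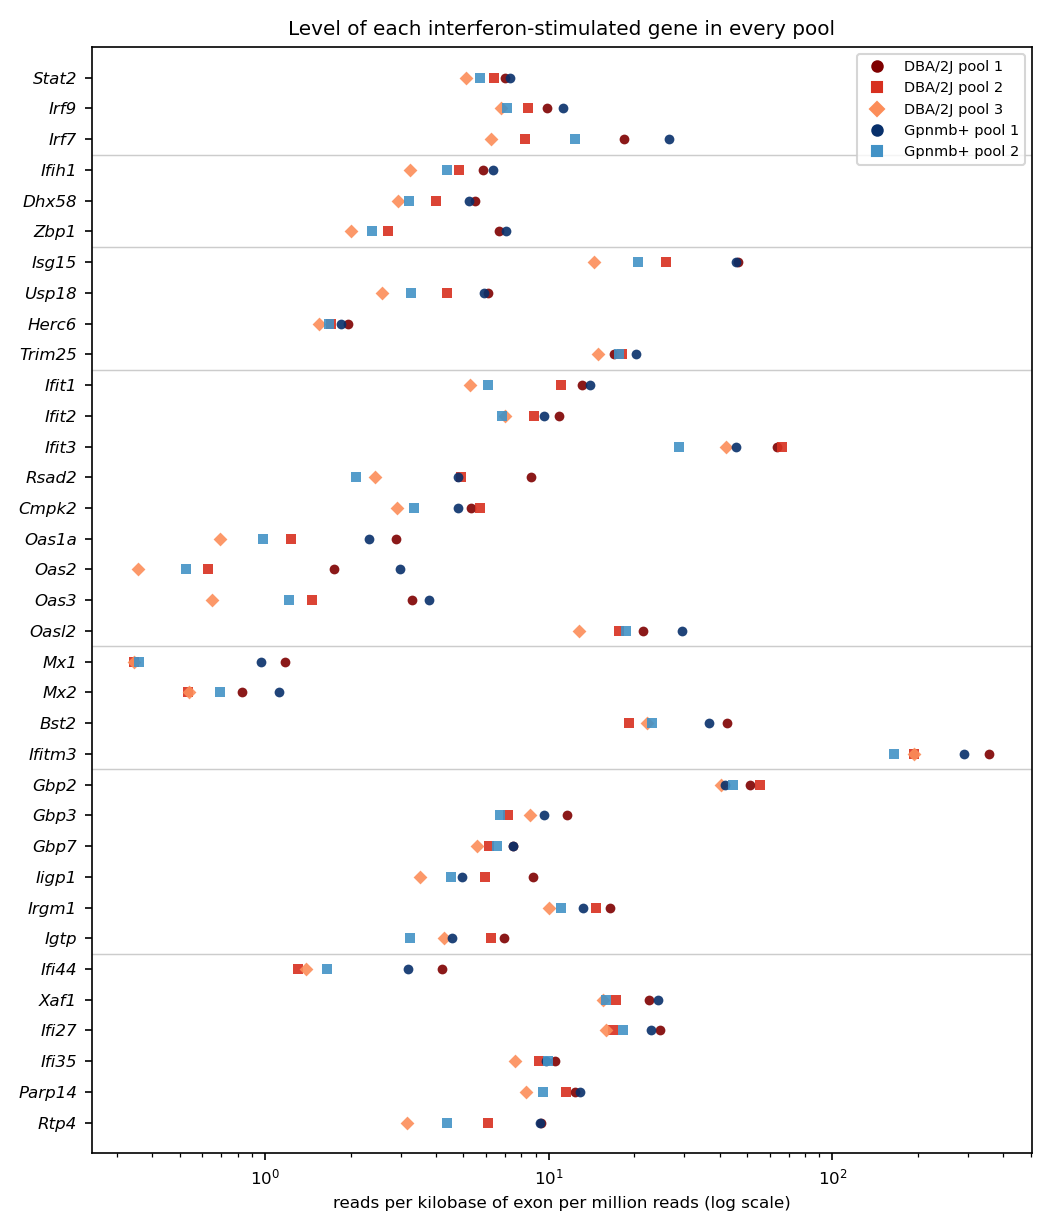
Level of each member in every pool, in RPKM on a log scale, with members grouped by role and groups separated by lines. Red marks are DBA/2J pools and blue marks Gpnmb+ pools, circles are the pools numbered 1, and for most genes the circles lie to the right whatever their color.

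Levels can be compared between genes only per length. By CPM per kilobase of exon (RPKM), Ifitm3 was highest at 165 to 357 over the 5 pools, and it was the only member whose range did not overlap that of the next in order. Ifit3 at 28.7 to 66.6 RPKM, Gbp2 at 40.6 to 55.4 RPKM, Isg15 at 14.4 to 46.3 RPKM and Bst2 at 19.2 to 42.5 RPKM followed. Mx1 was lowest at 0.35 to 1.17 RPKM, below Mx2 at 0.54 to 1.12 RPKM. For 33 of the 34 neighboring pairs in this order the ranges over the pools overlapped. In Ifitm3, 780 of 1281 exonic bases lie opposite exons of Gm57251, and in Isg15, 243 of 782 lie opposite Gm46878. Each of these noncoding genes had 1 count in all. With the strand setting unknown, whether reads there were counted cannot be told, so these levels per length are uncertain.

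Promoter letters and pool differences were set side by side as a description. Members with ISRE letters had a median ratio of DBA/2J pool 1 to pool 3 of 2.37, and members without had 1.54. In Gpnmb+ the median ratios of pool 1 to pool 2 were 1.62 and 1.48. The median log2 fold change between genotypes was -0.07 for the 19 members with the letters and -0.08 for the 16 without.

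Upstream of these genes, interferon transcripts were hardly counted. All 20 ligand genes with a row in the table, which comprise the alpha, beta, gamma, epsilon, kappa, zeta and lambda interferons, stayed under the filter. Ifnb1 had 1 count in DBA/2J pool 1 and 0 counts elsewhere, Ifng had 1 count in DBA/2J pool 3 and 1 in Gpnmb+ pool 1, and every alpha interferon gene had 0 counts in all pools. At this depth a count of 0 allows up to 3 counts in a library. The receptor genes were plainly present, with Ifnar1 at 62.8 to 78.9 CPM and Ifngr1 at 115 to 133 CPM, and none of the 6 was 1.5-fold higher in pool 1 than in another pool of its genotype.

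Of the 108 other interferon pathway genes, 85 were tested and edgeR called none, while DESeq2 called Socs3 alone. Beside a share of 0.796% of all tested genes, 0 of 85 called by edgeR says little. At an unadjusted p of at most 0.05 there were 9 of 85 in edgeR, 12 in DESeq2 and 9 in limma-voom, and 3 of 85 in edgeR when a fold of at least 1.5 was also asked, against the 15.9%, 16.1%, 15.9% and 8.67% of tested genes. Socs3, an inhibitor of JAK kinases, was 55.8, 25.0 and 40.0 CPM in DBA/2J and 23.5 and 15.6 CPM in Gpnmb+, with a log2 fold change of 1.04 ± 0.36 (SE; edgeR adjusted p = 0.25). All DBA/2J pools lay above both Gpnmb+ pools, the nearest by little. Sting1, the adaptor of cytosolic DNA sensing, was 34.4, 24.3 and 24.4 CPM against 21.9 and 13.8 CPM, a log2 fold change of 0.63 ± 0.25 (SE; edgeR adjusted p = 0.30). The kinase Tbk1, which acts after it, was 34.8 to 36.6 CPM in DBA/2J and 41.3 and 42.7 CPM in Gpnmb+. Ifitm1, a relative of Ifitm3, was 420 to 508 CPM in DBA/2J and 614 and 648 CPM in Gpnmb+, with an edgeR adjusted p of 0.165. Tor3a, an interferon-responsive ATPase, was 105 to 119 CPM in DBA/2J and 84.5 and 92.2 CPM in Gpnmb+.

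The smallest p-values in the other lists also missed the threshold. Among the receptors, Ifnlr1 had a log2 fold change of -0.41 ± 0.17 (SE) and Ifngr2 one of -0.13 ± 0.09 (SE). Among the kinases and transcription factors, Tyk2 had -0.23 ± 0.11 and Irf1 had -0.34 ± 0.17 (SE). Samhd1, a restraint that depletes nucleotides, had -0.19 ± 0.18 (SE). All of these had edgeR adjusted p-values of 0.318 or more.

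The pool differences extended into the 51 further interferon-stimulated genes that were tested. Their median ratio of DBA/2J pool 1 to pool 3 was 0.58 on the log2 scale, and that of Gpnmb+ pool 1 to pool 2 was 0.36, where all tested genes had -0.01 and 0.00. Pool 1 was at least 1.5-fold above every other pool of its genotype in both genotypes for Ifi204, Ifi205, Ifi207, Ifi211, Oas1g, Trim30a and Ifi27l2a, 7 genes of these 51, against 2.33% of tested genes. None of the receptors, kinases and factors, sensors or restraints did so. Ifi27l2a was 22.9, 7.32 and 10.1 CPM in DBA/2J and 39.7 and 15.7 CPM in Gpnmb+, highest in Gpnmb+ pool 1.

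Markers of other cells were compared with these pool differences. The neutrophil and monocyte list (S100a8, S100a9, Ly6c2, Ly6g, Ccr2, Csf3r and Retnlg) summed to 316, 75.5 and 69.2 CPM in DBA/2J and to 255 and 39.4 CPM in Gpnmb+, with 5 of its 6 tested genes higher in DBA/2J. All 6 tested genes were at least 1.5-fold higher in pool 1 than in every other pool of its genotype, in both genotypes. S100a9, a calcium-binding protein of neutrophils and monocytes, was 126, 8.99 and 12.4 CPM in DBA/2J and 45.3 and 4.15 CPM in Gpnmb+. Ly6c2, a surface protein of inflammatory monocytes, was 14.0, 1.05 and 1.57 CPM against 8.81 and 0.84 CPM. Ccr2, their chemokine receptor, was 68.5, 40.9 and 29.8 CPM against 142 and 19.4 CPM, highest in Gpnmb+ pool 1. Of the 6 tested genes, 5 were highest in DBA/2J pool 1 and 1 in Gpnmb+ pool 1, beside 19 and 13 of the 35 members. Ly6g, the defining neutrophil marker, had 7, 0 and 0 counts in DBA/2J, against 2 and 0 counts in Gpnmb+. The part of these cells in the interferon-stimulated transcripts was not tested.

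The median ratios of pool 1 to the other pools were smaller in the other immune lists than in the neutrophil and monocyte list. The 11 macrophage markers summed to 1210, 1170 and 892 CPM in DBA/2J and 1000 and 824 CPM in Gpnmb+, with 9 of 11 higher in DBA/2J, and 1 of 11, Fcgr1, set pool 1 apart in both genotypes by 1.5-fold. The 5 plasmacytoid dendritic cell markers summed to 28.5 to 43.5 CPM, most of it from Pacsin1, with 3 of 5 higher in DBA/2J. Pacsin1 was 18.8 and 28.2 CPM in Gpnmb+ pools 1 and 2, while the other 4 markers were higher in pool 1, Siglech at 4.55 and 4.23 CPM. The 7 genes of MHC class II summed to 813, 1070 and 729 CPM against 776 and 471 CPM, highest in DBA/2J pool 2, and all 7 estimates were positive. All 7 were at least 1.5-fold higher in Gpnmb+ pool 1 than in pool 2, with a median ratio of 1.73 beside 1.58 for the members, and their median ratio of DBA/2J pool 1 to pool 2 was 0.794. Markers of T and natural killer cells summed to 20.9 to 41.7 CPM, most of it from Cd4, with 6 of 10 higher in DBA/2J. Of these 10, 6 were at least 1.5-fold higher in Gpnmb+ pool 1 than in pool 2, with a median ratio of 1.58, while Cd4 was 10.8 and 22.1 CPM there and the median ratio of DBA/2J pool 1 to pool 2 was 0.624. Conventional dendritic cell markers summed to 68.1 to 140 CPM, with 6 of 6 higher in DBA/2J. Markers of B and plasma cells summed to 6.08 to 15.5 CPM, with 0 of 5 higher in DBA/2J.

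Tissue lists also moved between pools. The 7 surface epithelial genes summed to 10700, 11700 and 7250 CPM in DBA/2J and to 12800 and 11300 CPM in Gpnmb+, with 2 of 7 higher in DBA/2J. DBA/2J pool 3, in which 25 of 35 members were lowest, had Krt12, the corneal keratin, at 9.44 CPM against 116 to 1702 CPM in the other pools. Nonpigmented ciliary epithelium genes summed to 672 to 875 CPM in DBA/2J and 246 and 140 CPM in Gpnmb+, and skeletal muscle genes to 140 to 387 CPM and 141 and 84.1 CPM. Both lists were highest in DBA/2J pool 3, with all 4 and all 6 of their genes higher in DBA/2J. Pigment cell genes summed to 3380 to 4470 CPM and endothelial genes to 455 to 591 CPM over the 5 pools, with 2 of 6 and 4 of 8 higher in DBA/2J, as was 1 of 4 meshwork genes. Xist was 13.4, 0 and 54.2 CPM in DBA/2J and 155 and 187 CPM in Gpnmb+. Within DBA/2J the Y-linked genes Ddx3y, Uty, Kdm5d and Eif2s3y were lowest in pool 3. All 4 were at least 1.5-fold higher in pools 1 and 2 than in pool 3, against 8.91% and 7.70% of tested genes. The parts of tissue composition and of sex in the pool differences were not tested.

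**Figure D4:**
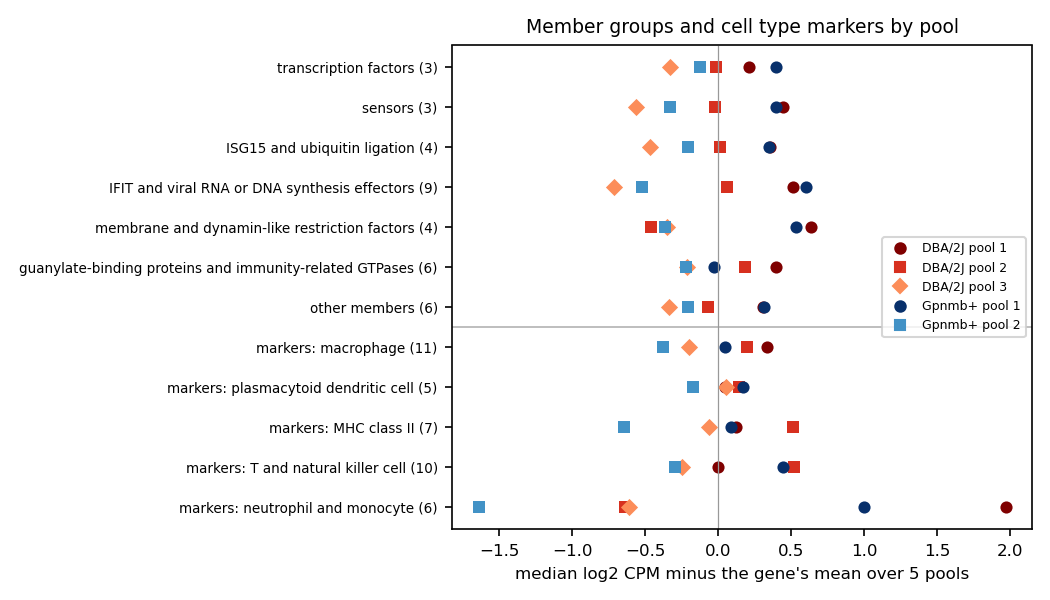
Median log2 CPM of each gene group in every pool, relative to each gene's own mean over the 5 pools, with the number of tested genes in parentheses. Member groups are above the line and immune cell markers below it. The pools numbered 1 (circles) lie on the right in every member group except that Gpnmb+ pool 1 lies near 0 for the GTPases, and the neutrophil and monocyte markers spread farthest, from -1.64 to 1.97.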

How the data were processed

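Poly(A) RNA of 5 pools was sequenced as paired reads. Per the labels and methods, the authors used fastp for trimming and STAR for alignment (GRCm39, Ensembl annotation), summed unique alignments over each gene, and deposited these raw counts unscaled. The strand setting is not given in the sources used here. GENCODE M39, on the same build, supplied symbols for 56323 of 56941 identifiers, exon lengths and promoter positions. All per-sample columns were used.

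Genes reaching 10 counts in any pool were scaled by TMM and compared with edgeR 4.0.16 (quasi-likelihood test, no covariate, R 4.3.3). DESeq2 1.42.0 and limma 3.58.1 were alternatives, and scripts were tested on simulated data. Log2 CPM used a prior count of 2. RPKM divided CPM by the merged exon length. No p-value was adjusted over the members alone. Totals of 43900661 to 49837758 counts make counting error small for most members, and p-values rest on the spread between pools, not between mice.

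The members and lists were chosen with earlier results of these data known. Counts in every pool were given for called members, the 8 smallest edgeR p-values and the 3 highest RPKM, and other genes given in full were chosen after their values were seen. In each pathway list the called genes were named, or else the 2 with the smallest p. Leaving out each pool, other scalings, filters and thresholds, and the replicate number as a block were tried. Chil1, a meshwork marker, had no row. Promoter sequences were read from the GRCm39 genome. Results for some genes of the pathway are not reported here.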

Additional observations from a re-analysis of the deposited data

How the results depend on the processing

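No member was called under DESeq2 size factors in edgeR, DESeq2, limma-voom, filterByExpr, no count filter, no fold minimum, unadjusted p-values, the replicate block or any pool left out. Over all tested genes 157 were called, against 927 by DESeq2, 360 with no count filter, 1710 at an unadjusted p, and 1 to 217 with a pool left out (1 without DBA/2J pool 2, 2 without Gpnmb+ pool 2, 6 without DBA/2J pool 1, 17 without DBA/2J pool 3). The cause was not tested. Other pathway genes called numbered 0, against 1 by DESeq2 and 3 at an unadjusted p, and 0 with any pool left out. The members' median log2 fold change of -0.07 stayed between -0.12 and -0.05 under other tools, scalings and filters and ran from -0.33 to 0.39 with a pool left out, where fits without a Gpnmb+ pool assume that the lone pool varies like the DBA/2J pools. The 0 members with separated pools became 1 to 13 with a pool left out, where fewer pools have to separate. The share of all tested genes with separated pools, 34.5%, was taken over all 5 pools only. The counts with a pool left out therefore have no background, and nothing is read from them. The sign of the estimate differed from the reported one in 19 of 35 members without Gpnmb+ pool 1, 15 without DBA/2J pool 3, and 3 to 5 without any of the other pools. With the replicate block the median was 0.11, 17 members changed sign so that 27 of 35 were higher in DBA/2J, 220 genes and 0 members were called, and the lowest member adjusted p was 0.059 (edgeR, Rsad2). No Gpnmb+ pool is numbered 3, so in the block fit DBA/2J pool 3 adds nothing to the difference between genotypes. Leaving that pool out without a block gave a median of 0.12, with 24 of 35 members higher in DBA/2J. Equal numbers are not stated to share a batch, and with only 2 numbers in both genotypes they were not taken as pairs, although deviations of same-numbered pools from their genotype mean correlated at 0.279 and 0.254 over 19713 genes. The deviations of the 2 Gpnmb+ pools mirror each other, so these 2 correlations are not independent. Every member had at least 50 counts in every pool, whereas interferon ligands lay at 0 to 2 counts.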
